A study of Mus musculus with 4 samples.

Results

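Notch signalling passes a message between touching cells. A ligand on one cell, of the Delta or Jagged kind, pulls on a Notch receptor on its neighbour, ADAM10 and then gamma-secretase cut the receptor, and the freed intracellular domain enters the nucleus and joins the DNA-binding protein RBPJ and a Mastermind coactivator. Among the genes switched on are some whose products feed back on the pathway: Nrarp and the Deltex proteins act on the intracellular domain or the receptor, and Hes1 is a transcriptional repressor. In blood, Notch1 is best known for starting T cell development and Notch2 for marginal zone B cells, and in mouse stem and progenitor cells Notch signalling has been reported to favour megakaryocytes.

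The account covers 10 genes of this pathway, listed by symbol with results of these libraries already in view, among 41214 gene identifiers counted. They are the ligand Jag2, the receptors Notch1, Notch2, Notch3 and Notch4, the nuclear effector Rbpj, and the feedback or target genes Nrarp, Hes1, Dtx1 and Dtx4. Because the choice drew on the counts themselves, the levels and fold changes of these genes are given as a description and no test is drawn from them. RNA came from megakaryocytes, the marrow cells that release platelets, of C57Bl/6 mice aged 8 weeks. They were sorted from leg and upper arm bones as lineage-negative cells carrying cKit, CD41 and CD61. There were 4 groups of 1 library each: ROSA-Cre knockout and ROSA-Cre wild-type, PF4-Cre knockout and PF4-Cre wild-type, where the genotype is that of Gfi1b, a zinc finger repressor needed in megakaryocytes and red cells. Pf4, the gene named in the PF4-Cre model, is active in megakaryocytes. The labels do not describe the ROSA-Cre allele, the deleted exons, how deletion was started or any pooling of mice, and they name no Cre-free group.

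Gene counts were 21835165 in the ROSA-Cre knockout, 24869421 in the wild-type library of ROSA-Cre, 59595680 in the PF4-Cre knockout and 61652843 in the PF4-Cre wild-type library. Levels are given as CPM, counts scaled to the TMM-normalised library size, and a count of 0 allows up to 3 counts, or 0.134, 0.122, 0.0496 and 0.0502 CPM in those libraries in that order. Gfi1b itself had 55122 counts in the ROSA-Cre knockout against 5864 in its wild-type library, and 84744 counts in the PF4-Cre knockout against 10137 in its wild-type library. Counts over the whole gene were thus 10.3-fold and 8.26-fold higher in the libraries labelled knockout, and without the position of the deletion they do not check the labels. Every direction below is that of the libraries labelled knockout. All 9 megakaryocyte markers listed had counts in all 4 libraries, led by Itga2b (CD41) at 2155, 3570, 2470 and 2382 CPM in the same order of libraries. The sort used cKit, CD41 and CD61, so their genes on the list (Kit, Itga2b and Itgb3) are no independent check of the label. These are bulk libraries, in which fewer cells of a type and less RNA per cell cannot be told apart.

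Promoter windows of Nrarp, Rbpj and Hes5 are shown. A factor that acts on Notch targets, RBPJ, and the product of the targeted gene, GFI1B, both bind short DNA motifs. The windows run from 250 bases before to 50 bases after the annotated start (RefSeq, GRCm38.p6, 5′ to 3′ on the gene's strand). Nrarp at chr2:25180508-25180807 (plus strand) is the gene lower by at least 2-fold in both models, and its capitals mark AATC, the core of the GFI1 and GFI1B site. Rbpj at chr5:53590096-53590395 (plus strand) is the pathway's DNA-binding protein, and Hes5 at chr4:154960673-154960972 (plus strand) is a reported Notch target outside the 10 genes. In both, capitals mark TGGGAA, the RBPJ core, or its reverse complement TTCCCA.
Nrarp: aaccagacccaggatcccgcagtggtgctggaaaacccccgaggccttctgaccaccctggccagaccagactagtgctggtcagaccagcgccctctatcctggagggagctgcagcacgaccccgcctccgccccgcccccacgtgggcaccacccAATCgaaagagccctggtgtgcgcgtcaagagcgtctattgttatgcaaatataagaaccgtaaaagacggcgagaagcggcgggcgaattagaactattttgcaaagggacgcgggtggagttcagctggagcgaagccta
Rbpj: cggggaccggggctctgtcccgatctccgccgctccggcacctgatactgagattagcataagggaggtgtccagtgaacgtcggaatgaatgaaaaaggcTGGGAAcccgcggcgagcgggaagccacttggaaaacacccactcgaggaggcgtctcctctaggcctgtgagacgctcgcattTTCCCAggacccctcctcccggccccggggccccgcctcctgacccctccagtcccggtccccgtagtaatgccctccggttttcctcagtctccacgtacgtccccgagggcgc
Hes5: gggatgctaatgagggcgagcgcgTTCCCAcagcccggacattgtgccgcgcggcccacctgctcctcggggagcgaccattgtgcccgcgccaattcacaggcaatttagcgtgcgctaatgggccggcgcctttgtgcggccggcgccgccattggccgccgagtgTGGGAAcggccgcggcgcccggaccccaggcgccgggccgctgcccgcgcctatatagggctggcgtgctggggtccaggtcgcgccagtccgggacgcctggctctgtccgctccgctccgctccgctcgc

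The table held windows for 8 of the 10 genes, 9 windows in all, and none for Hes1 or Dtx4. TGGGAA on either strand was in 2 of the 9 windows, both belonging to Rbpj, in 21 of 88 windows of the other Notch pathway genes and in 25.6% of all 32851 windows. In the Rbpj window printed it began 149 bases before the start on the gene's strand and 65 bases before it on the other strand, and Hes5 carried a similar pair 226 and 82 bases before its start. The annotated start in that Rbpj window lies inside the gene, whose coordinates given below begin at chr5:53466152. The longer form GTGGGAA, which contains TGGGAA, was in 0 of the 9 windows, in 9 of 88 and in 6.38% of all windows. AAATCAC, the longer GFI1 and GFI1B site, was in 0 of the 9 windows, in 1 of 88 and in 3.20% of all windows. Its core AATC, which AAATCAC contains, was in 3 of the 9 windows (Nrarp, Rbpj and Dtx1), in 50 of 88 and in 73.1% of all windows. The Nrarp match began 92 bases before the start. These matches describe letters in a window and are no evidence of binding.

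All 10 genes had at least 1 count. Per kilobase of exon, the scale on which genes can be compared, Notch2 was the highest in every library, and Notch4, Notch3 and Dtx1 were the lowest in that order in every library. The 6 genes between them changed places. Counting from the highest, Nrarp had rank 7 in the ROSA-Cre knockout library and rank 2 in the other 3. Hes1 had rank 5 in the ROSA-Cre knockout and rank 3 in the PF4-Cre knockout library, against rank 7 in both wild-type libraries. The ratio of Nrarp to Hes1 per kilobase was 0.473 in the ROSA-Cre knockout against 16.4 in the ROSA-Cre wild-type library, and 1.24 in the PF4-Cre knockout against 15.3 in the PF4-Cre wild-type library.

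**Figure D1:**
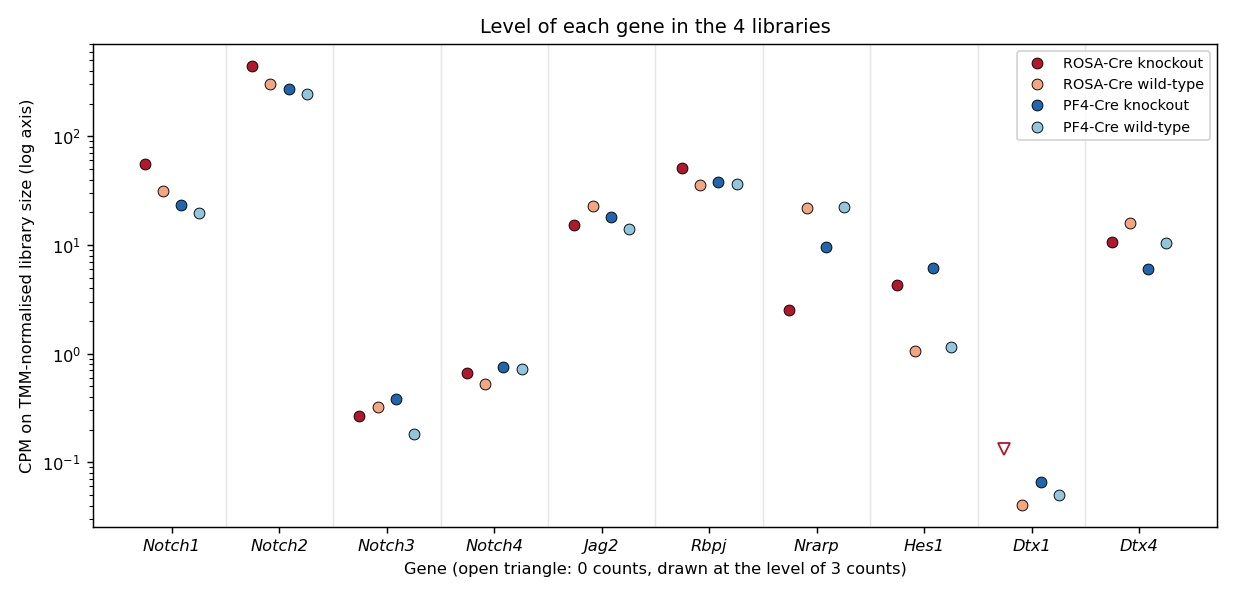
Level of each of the 10 genes in each library, in CPM on a log axis, with 1 point per library, knockout libraries left of their wild-type libraries, and an open triangle for 0 counts drawn at the level of 3 counts. Notch2 lies highest at 247 to 444 CPM, and Nrarp and Hes1 are the genes whose knockout and wild-type points stand furthest apart.

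Of the 10 genes, 9 passed the filter on low counts and 1, Dtx1, did not. With edgeR's quasi-likelihood test over both models, a threshold of 0.05 on the Benjamini-Hochberg adjusted p called 1 of the 9 higher (Hes1) and 1 lower (Nrarp), beside 22.2% of 15063 genes tested (12.6% higher and 9.59% lower). Nothing is read from these counts, since the same contrast informed the choice of genes. Both knockout libraries lay above both wild-type libraries for 2 of the genes (Hes1 and Rbpj), as for 23.4% of tested genes, and below both for 1 (Nrarp), as for 23.7%. Within each model a ratio of at least 2-fold was seen for the same pair of genes, Hes1 higher and Nrarp lower. Across tested genes, 13.6% were at least 2-fold higher and 7.73% at least 2-fold lower in ROSA-Cre, and 9.81% and 2.97% in PF4-Cre. A fall of at least 2-fold in both models, as for Nrarp, was seen in 1.5% of tested genes, and a rise of that size in both, as for Hes1, in 7.4%.

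Nrarp, a small ankyrin-repeat protein that binds the Notch intracellular domain with RBPJ and limits the signal, was lower in both models (ENSMUSG00000078202, chr2:25180758-25183339, plus strand, protein coding, GRCm38). It had 57 counts (2.55 CPM) in the ROSA-Cre knockout against 541 (22.0 CPM) in the ROSA-Cre wild-type library. In PF4-Cre it had 584 counts (9.65 CPM) in the knockout against 1340 (22.4 CPM) in the wild-type library. The wild-type libraries of the models were thus close, and the knockout libraries were both below them but apart from each other. The level was 8.51-fold lower in the ROSA-Cre knockout (95% counting interval 6.56 to 11.6) and 2.32-fold lower in the PF4-Cre knockout (2.11 to 2.56). Over both models the fitted log2 fold change was −1.94 (SE 0.40). It was −1.20 without the ROSA-Cre knockout library and −3.12 without the PF4-Cre knockout library, so these libraries set much of its size. Both of those fits also lacked the Cre model term. The log2 ratio in ROSA-Cre minus that in PF4-Cre was −1.88, outside the range from −1.24 to 1.03 between the 5th and 95th percentiles of all tested genes. With 1 library per group this difference between the models could not be tested. An antisense transcript annotated over 2051 bases of Nrarp's exons was not counted in these files, and the strand setting of the counting is not given, so its reads cannot be told apart from those of Nrarp.

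Hes1, a basic helix-loop-helix repressor and the best known Notch target, was higher in both models (ENSMUSG00000022528, chr16:30064384-30067796, plus strand, protein coding). It had 95 counts (4.24 CPM) in the ROSA-Cre knockout against 26 (1.06 CPM) in the ROSA-Cre wild-type library. In PF4-Cre there were 371 counts (6.13 CPM) in the knockout against 69 (1.15 CPM) in the wild-type library. Both knockout libraries lay well above both wild-type libraries, which were nearly equal. The ratio was 3.90 in ROSA-Cre (95% counting interval 2.58 to 6.46) and 5.25 in PF4-Cre (4.10 to 6.97), with overlapping intervals. The fitted log2 fold change was 2.27 (SE 0.33), and 1.93 to 2.46 with 1 library left out in turn, in fits that lacked the Cre model term. Nrarp and Hes1, which share a place downstream of Notch, thus differed between genotypes in opposite directions.

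The Deltex genes encode RING-type ubiquitin ligases that bind Notch receptors. Dtx4 (ENSMUSG00000039982, chr19:12466338-12501454, minus strand, protein coding) had 236 counts (10.5 CPM) in the ROSA-Cre knockout against 391 (15.9 CPM) in the ROSA-Cre wild-type library, and 367 (6.07 CPM) in the PF4-Cre knockout against 623 (10.4 CPM) in the wild-type library of PF4-Cre. It was 1.51-fold and 1.72-fold lower in the knockout of ROSA-Cre and PF4-Cre, but the ROSA-Cre knockout and the PF4-Cre wild-type libraries were level, so the genotypes touched when the models were pooled. Its fitted log2 fold change was −0.69 (SE 0.22). Dtx1 (ENSMUSG00000029603, chr5:120680202-120711927, minus strand, protein coding), a Notch target in lymphocytes, had 0, 1, 4 and 3 counts in the ROSA-Cre knockout, ROSA-Cre wild-type, PF4-Cre knockout and PF4-Cre wild-type libraries. That is at or near the limit of detection in every library, and no ROSA-Cre ratio is given. The PF4-Cre ratio was 1.24 with an interval of 0.223 to 8.99, which leaves its direction undetermined at this depth.

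**Figure D2:**
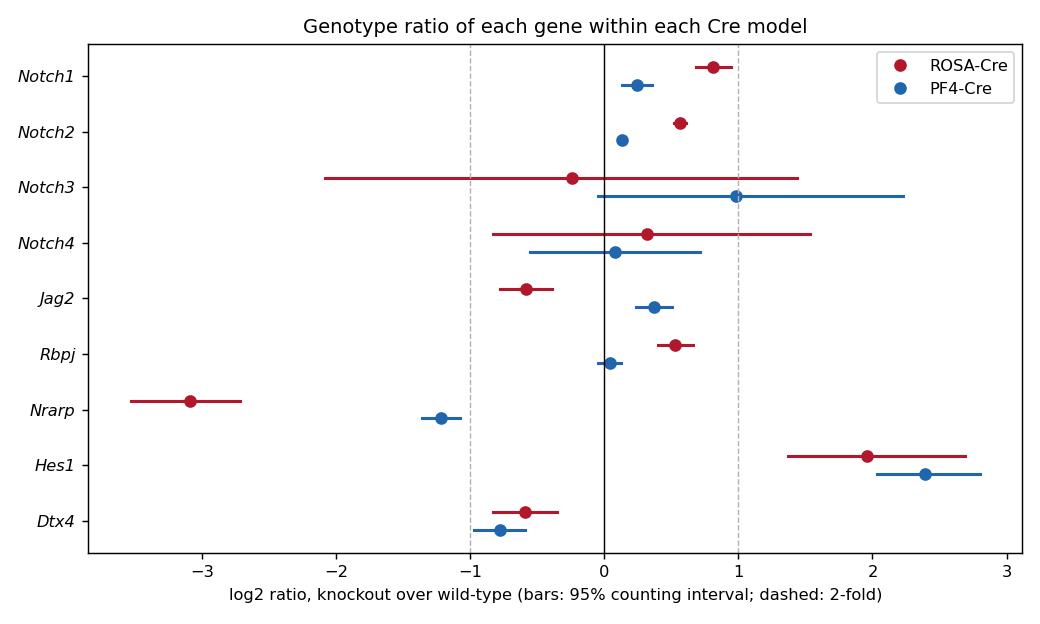
Ratio of the knockout to the wild-type library within each model, on a log2 axis, for each gene. Points are ratios, bars are 95% counting intervals, dashed lines mark 2-fold, and ROSA-Cre is drawn above PF4-Cre. Nrarp lies left of the 2-fold line in both models and Hes1 right of it, while Jag2 and Notch3 have points on opposite sides of 0.

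Among the receptors, Notch2 made up nearly all of the level. Its per-kilobase share of the 4 receptors was 91.1% in the ROSA-Cre knockout, 92.3% in the wild-type library of ROSA-Cre, 93.4% in the PF4-Cre knockout and 93.9% in the PF4-Cre wild-type library. Notch1 took 8.63%, 7.36%, 6.11% and 5.67% in the same order, and Notch3 and Notch4 took at most 0.175% and 0.366% in any library. The summed receptor level was 45.2 CPM per kilobase in the ROSA-Cre knockout against 30.1 in the ROSA-Cre wild-type library, and 26.9 in the PF4-Cre knockout against 24.4 in the PF4-Cre wild-type library.

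Notch2 (ENSMUSG00000027878, chr3:98013527-98150361, plus strand, protein coding) had 9945 counts (444 CPM) in the ROSA-Cre knockout against 7381 (299.9 CPM) in the ROSA-Cre wild-type library. In PF4-Cre it had 16381 counts (271 CPM) in the knockout against 14752 (247 CPM) in the wild-type library. The ratio was 1.48 in ROSA-Cre (95% counting interval 1.44 to 1.53) and 1.10 in PF4-Cre (1.07 to 1.12). The ROSA-Cre wild-type library exceeded the PF4-Cre knockout library, so the genotypes overlapped across models. Notch1 (ENSMUSG00000026923, chr2:26457903-26516663, minus strand, protein coding) had 1244 counts (55.6 CPM) in the ROSA-Cre knockout against 777 (31.6 CPM) in the ROSA-Cre wild-type library, and 1414 (23.4 CPM) in the PF4-Cre knockout against 1177 (19.7 CPM) in the wild-type library of PF4-Cre. Its ratio was 1.76 (1.61 to 1.93) in ROSA-Cre and 1.19 (1.10 to 1.28) in PF4-Cre. For both receptors the genotypes overlapped across models, the ROSA-Cre knockout library being the highest of the 4. The fitted log2 fold change was 0.53 (SE 0.18) for Notch1 and 0.35 (SE 0.14) for Notch2. Without the ROSA-Cre knockout library these were −0.13 and −0.01. That fit also lacked the Cre model term, so the difference between the models enters it, while both ratios within PF4-Cre were above 1.

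Notch3 and Notch4, which are best known in vessel walls, were detected at below 1 CPM in every library. Notch3 (ENSMUSG00000038146, chr17:32120820-32166852, minus strand, protein coding) had 6 counts in the ROSA-Cre knockout against 8 in the ROSA-Cre wild-type library, and 23 in the PF4-Cre knockout against 11 in the PF4-Cre wild-type library. Its ratios of 0.845 (0.236 to 2.71) and 1.98 (0.967 to 4.69) in ROSA-Cre and PF4-Cre had intervals that both reach across 1, so no difference was detectable at this depth. Notch4 (ENSMUSG00000015468, chr17:34564268-34588503, plus strand, protein coding) had 15 counts in the ROSA-Cre knockout against 13 in the ROSA-Cre wild-type library, and 46 in the PF4-Cre knockout against 43 in the PF4-Cre wild-type library. Its ratios were 1.25 (0.563 to 2.90) and 1.06 (0.682 to 1.64), which again reach across 1. Levels of vessel-wall genes in the same libraries were low for mural cells, at 3.93, 2.19, 2.76 and 5.47 CPM summed over 7 markers in the ROSA-Cre knockout, ROSA-Cre wild-type, PF4-Cre knockout and PF4-Cre wild-type libraries. Most of each sum was Pdgfrb. The 10 endothelial markers were higher, at 336, 256, 373 and 263 CPM summed in the same order, led by Pecam1. An antisense gene, Gm17276, shares 488 exonic bases with Notch3 and had 14, 8, 40 and 17 counts in that order. Another, 0610009E02Rik, shares 1068 exonic bases with Notch1 and had 41, 29, 45 and 33 counts.

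Rbpj, which turns the cleaved receptor into a change of transcription, was nearly level between genotypes in PF4-Cre (ENSMUSG00000039191, chr5:53466152-53657362, plus strand, protein coding). It had 1147 counts (51.2 CPM) in the ROSA-Cre knockout against 873 (35.5 CPM) in the ROSA-Cre wild-type library, and 2290 (37.9 CPM) in the PF4-Cre knockout against 2198 (36.8 CPM) in the wild-type library of PF4-Cre. The ROSA-Cre knockout library stood above the other 3, which were nearly level. The ratio was 1.44 (1.32 to 1.58) in ROSA-Cre and 1.03 (0.970 to 1.09) in PF4-Cre, where the log2 ratio turned to −0.11 after a correction for GC content and length.

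Jag2, a membrane ligand of Notch receptors, went in opposite directions in the models (ENSMUSG00000002799, chr12:112907819-112929776, minus strand, protein coding). It had 345 counts (15.4 CPM) in the ROSA-Cre knockout against 568 (23.1 CPM) in the ROSA-Cre wild-type library, and 1087 (17.97 CPM) in the PF4-Cre knockout against 831 (13.9 CPM) in the wild-type library of PF4-Cre. The knockout libraries lay between the wild-type libraries. The ratio was 0.668 (0.582 to 0.764) in ROSA-Cre and 1.29 (1.18 to 1.42) in PF4-Cre, and neither interval reaches 1. Over both models the fitted log2 fold change was −0.08 (SE 0.26). In all, 7 of the 10 genes had ratios on one side of 1 in both models (5 higher, 2 lower) and 3 on opposite sides (Jag2, Notch3 and Dtx1), beside 22.9% of tested genes on opposite sides. The Dtx1 ratio in ROSA-Cre rests on 0 and 1 counts.

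Between the models, over both genotypes, Notch1 and Notch2 had fitted log2 differences (ROSA-Cre minus PF4-Cre) of 0.97 (SE 0.18) and 0.50 (SE 0.14). The call rule counted 1 of the 9 genes, Notch1, beside 18.7% of 15063 genes (8.33% higher and 10.4% lower in ROSA-Cre), and nothing is read from it, since the same counts informed the choice of genes. The models also differ in depth, and the ROSA-Cre allele and that difference cannot be told apart here.

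**Figure D3:**
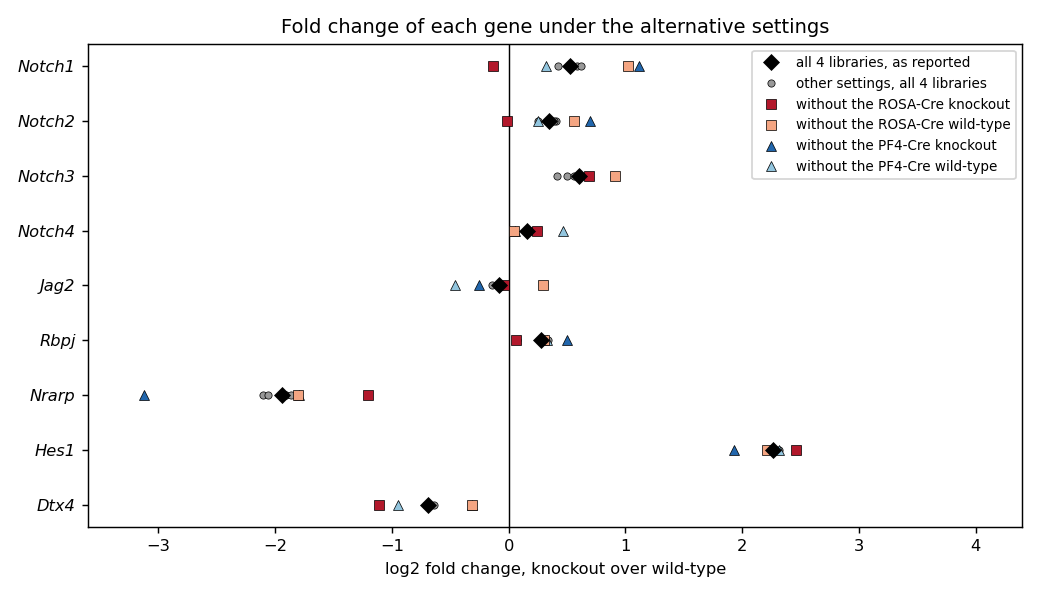
Fitted log2 fold change of the knockout over the wild-type for the 9 genes tested, with all 4 libraries (black diamonds), under other settings with all 4 libraries (grey) and without each library in turn (coloured). Hes1 stays between 1.93 and 2.46 and Nrarp between −3.12 and −1.20, while Notch1 and Notch2 move to −0.13 and −0.01 without the ROSA-Cre knockout library. The fits without a library also lack the Cre model term.

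Beyond the 10 genes, 79 other genes of the Notch pathway were listed by role, and all were found in the files. Of 65 tested, 13 rose, 2 fell and 50 did not pass, so that 23.1% were called beside 22.2% of all tested genes. DESeq2 called 10 higher and 2 lower. Their median log2 fold change was 0.20, beside −0.02 for all tested genes. The calls depend on the Cre model term: without it, with all 4 libraries kept, 2 genes were higher and 0 lower. Fits that left out 1 library also lacked that term. In them the loss of a library cannot be told apart from the loss of the term. The p-values rest on the spread between the 2 models, with 1 residual degree of freedom moderated across genes.

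Of 13 reported transcriptional targets tested, 4 rose and 2 fell, beside 22.2% of all tested genes called. Trib2, a pseudokinase that Notch switches on in leukaemic T cells, rose in both models. It had 563 counts (25.1 CPM) in the ROSA-Cre knockout against 53 (2.15 CPM) in the ROSA-Cre wild-type library, and 1999 (33.0 CPM) in the PF4-Cre knockout against 174 (2.91 CPM) in the wild-type library of PF4-Cre. The ratio was 11.5 in ROSA-Cre and 11.3 in PF4-Cre, and the log2 fold change 3.52 (SE 0.22, adjusted p = 0.000226 by edgeR's quasi-likelihood test). Bcl6, a repressor of germinal centre B cells, rose with a fold change of 1.60 in log2 units (SE 0.37, adjusted p = 0.0243), with ratios of 4.98 in ROSA-Cre and 2.12 in PF4-Cre. Gimap5, a GTPase of lymphocyte survival, rose by 0.86 (SE 0.23, adjusted p = 0.0378). Hes7, the segmentation clock repressor, was the fourth that rose and is named after its value was seen, with 78 counts in the ROSA-Cre knockout against 39 in the ROSA-Cre wild-type library, and 135 in the PF4-Cre knockout against 53 in the PF4-Cre wild-type library (log2 1.24, SE 0.34, adjusted p = 0.0387). The Hes7 call was lost with DESeq2 (adjusted p = 0.165) and without the filter (0.0666), and that of Gimap5 without the filter (0.0595).

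The targets that fell are both growth genes. Ccnd1, cyclin D1, had 313 counts (13.98 CPM) in the ROSA-Cre knockout against 1596 (64.9 CPM) in the ROSA-Cre wild-type library, and 1859 (30.7 CPM) in the PF4-Cre knockout against 4404 (73.7 CPM) in the wild-type library of PF4-Cre. Its log2 fold change was −1.71 (SE 0.23, adjusted p = 0.00411), with ratios of 0.216 in ROSA-Cre and 0.417 in PF4-Cre. Myc, a driver of growth and a Notch1 target in T cells, fell, with a fold change of −0.64 in log2 units (SE 0.14, adjusted p = 0.0221) and near equal ratios of 0.631 and 0.652 in ROSA-Cre and PF4-Cre. Hes5, whose promoter is printed above, is named after its value was seen: it had 0 counts in the ROSA-Cre knockout against 11 in the ROSA-Cre wild-type library, and 10 in the PF4-Cre knockout against 31 in the PF4-Cre wild-type library. This is at least 3.34-fold lower in ROSA-Cre, taking 3 counts for the 0, but the 95% counting interval, which also covers the error of the 11 counts, reached down to 2.28-fold. The adjusted p over both models was 0.0687. Among other classical targets Hey1, Hey2 and Heyl had 6 counts or fewer in every library and Hes2 had 0 in all 4.

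**Figure D4:**
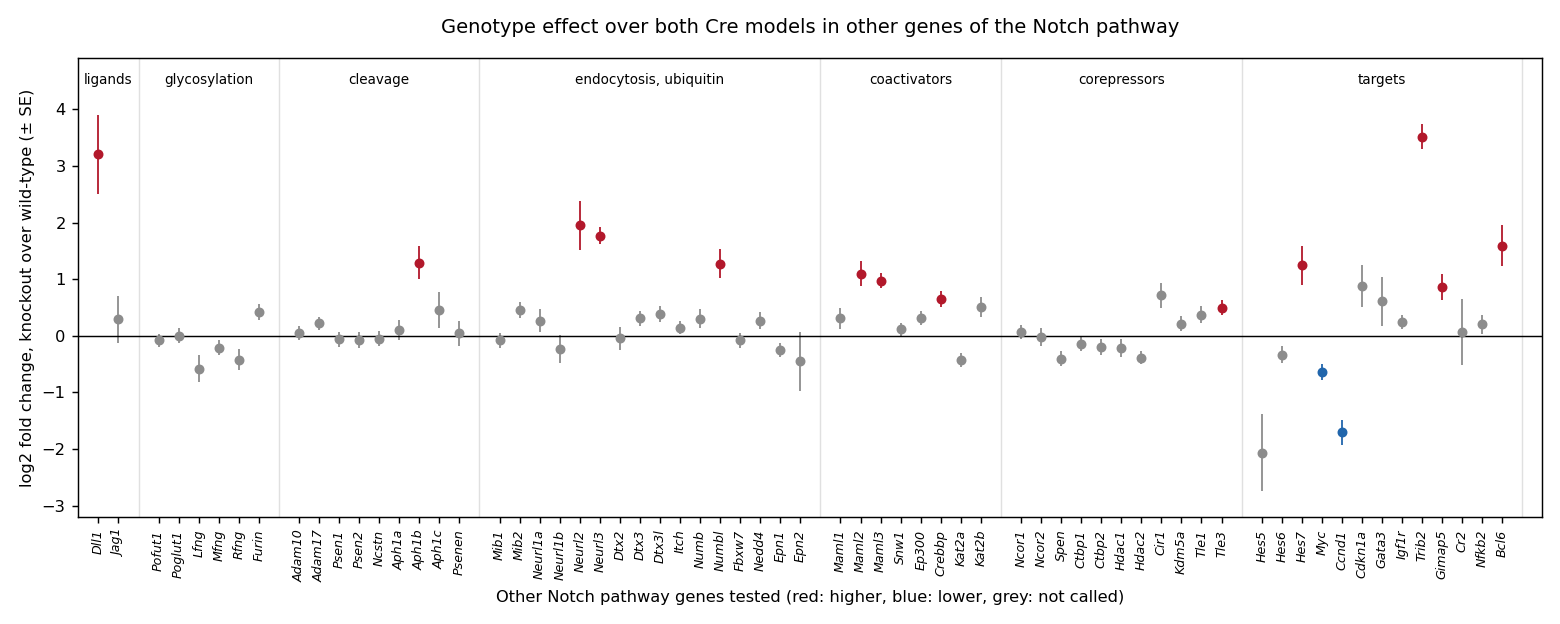
Log2 fold change of the knockout over the wild-type over both models, with SE, for the 65 other Notch pathway genes tested, grouped by role. Red marks the 13 genes that rose, blue the 2 that fell and grey the 50 not called. Trib2 is the highest at 3.52 and Ccnd1 is the lowest of the called genes at −1.71.

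In the endocytosis and ubiquitination group 3 of 16 tested genes rose and 0 fell (18.75% called), beside 22.2% of all tested genes called. Neurl3, a neuralized-type ubiquitin ligase, had 1310 counts (58.5 CPM) in the ROSA-Cre knockout against 423 (17.2 CPM) in the ROSA-Cre wild-type library, and 3070 (50.8 CPM) in the PF4-Cre knockout against 890 (14.9 CPM) in the wild-type library of PF4-Cre. The ratios of 3.40 in ROSA-Cre and 3.41 in PF4-Cre were nearly equal, and the log2 fold change was 1.77 (SE 0.15, adjusted p = 0.000693). Numbl, a relative of the Notch inhibitor Numb, rose by 1.28 (SE 0.26, adjusted p = 0.0164), and Neurl2 by 1.95 (SE 0.44, adjusted p = 0.0225) on 9 to 68 counts. The Neurl2 call was lost with DESeq2 (adjusted p = 0.169) and without the filter on low counts (0.0522). Trib2 and Neurl3 kept their calls in all 11 other settings, among them the fits without each library.

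Of 8 coactivators tested, 3 rose and 0 fell, beside 22.2% of all tested genes called. Maml3 and Maml2, Mastermind proteins that complete the Notch complex on DNA, rose by 0.98 (SE 0.14, adjusted p = 0.00496) and by 1.10 (SE 0.22, adjusted p = 0.0166). Crebbp, a histone acetyltransferase, rose by 0.65 (SE 0.14, adjusted p = 0.0185). Corepressors held 1 call in 11 tested genes, below that share. It was Tle3, a Groucho-type corepressor, at 0.50 (SE 0.13, adjusted p = 0.0384). A correction for GC content and length took Tle3 to an adjusted p of 0.0683 and a fit without the filter on low counts to 0.0762.

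Of 6 other ligands only 2 had enough counts to be tested. Dll1, a Delta-type ligand, had 19 counts in the ROSA-Cre knockout against 6 in the ROSA-Cre wild-type library, and 57 in the PF4-Cre knockout against 2 in the PF4-Cre wild-type library. It rose by 3.20 (SE 0.69, adjusted p = 0.0197), with ratios of 3.11 (95% counting interval 1.34 to 10.6) in ROSA-Cre and 19.1 (7.45 to 238) in PF4-Cre. The call was lost with DESeq2 (adjusted p = 0.0741) and without the filter on low counts (0.0513). Without the PF4-Cre wild-type library, which holds those 2 counts, and without the Cre model term, the log2 fold change was 1.89. Jag1, the other one, had 24, 18, 40 and 36 counts in the ROSA-Cre knockout, ROSA-Cre wild-type, PF4-Cre knockout and PF4-Cre wild-type libraries and was not called.

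The machinery that matures and cuts the receptors held 1 call (Aph1b), beside 22.2% of all tested genes called. Nothing is read from this count in so few genes. None of 6 glycosylation and maturation genes passed the test, where the most abundant, Pofut1, which adds fucose to Notch, had 103 CPM in the ROSA-Cre knockout against 105 in the ROSA-Cre wild-type library, and 98.7 in the PF4-Cre knockout against 108 in the PF4-Cre wild-type library. At an unadjusted p under 0.05, edgeR's test gave 1 of these higher (Furin) and 1 lower (Lfng), and DESeq2 called 0 higher and 0 lower after adjustment. Of 9 protease and gamma-secretase genes, 1 rose, Aph1b, a gamma-secretase subunit, at 1.29 (SE 0.29, adjusted p = 0.0221). Its value is uncertain because Aph1c is a near-identical copy and the counting could split their reads.

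Markers of other blood cells moved beside these genes. The neutrophil precursor list (8 genes, 4 of them lower by the same test) summed to 468 CPM in the ROSA-Cre knockout against 1798 in the ROSA-Cre wild-type library, and 1003 in the PF4-Cre knockout against 1676 in the PF4-Cre wild-type library. Like Nrarp and Ccnd1, it was lowest in the ROSA-Cre knockout library, and its most abundant gene was Mpo. Mpo, Elane, Prtn3 and Ctsg, the 4 called, were lower in both models. The others were lower in ROSA-Cre, while in PF4-Cre their ratios were 1.23 for S100a8, 1.22 for S100a9, 1.13 for Camp and 0.995 for Ltf. The monocyte list (3 of 7 lower) summed to 59.4, 151, 122 and 129 CPM in the ROSA-Cre knockout, ROSA-Cre wild-type, PF4-Cre knockout and PF4-Cre wild-type libraries. The mast cell and basophil list (2 of 6 tested genes higher) summed to 898 CPM in the ROSA-Cre knockout against 296 in the ROSA-Cre wild-type library, and 389 in the PF4-Cre knockout against 216 in the PF4-Cre wild-type library. Most of each sum was Gata2, which progenitors also express, at 789, 213, 303 and 153 CPM in that order. Fcer1a was the other gene called, and the remaining tested genes were not called.

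Some markers of lymphoid and vascular cells, in which Notch is well studied, were at or near 0, and others were not. The 12 T cell markers summed to 46.0, 134, 64.7 and 112 CPM in the ROSA-Cre knockout, ROSA-Cre wild-type, PF4-Cre knockout and PF4-Cre wild-type libraries, nearly all of it Lat (41.7, 129, 58.7 and 103 CPM), an adaptor that platelets also use. Cd3e, which defines T cells, had 0, 0, 3 and 1 counts and Cd8a 0, 0, 10 and 8. The 8 B cell markers summed to 71.9, 122, 77.9 and 123 CPM, led by Ighm. Cd79a had 0, 6, 8 and 29 counts, but Cd79b had 441, 658, 1224 and 1575. The 10 endothelial markers summed to 336, 256, 373 and 263 CPM, led by Pecam1, which megakaryocytes express too. Cdh5, which defines endothelium, had 0, 0, 5 and 5 counts. Kdr stood at 38.8, 42.4, 81.9 and 43.4 CPM and Tek at 67.1, 62.6, 80.1 and 87.6 CPM. By the same test 1 T cell marker (Lat) and 1 B cell marker (Ighm) fell, and 2 endothelial markers rose, Emcn, with ratios of 11.1 in ROSA-Cre and 5.59 in PF4-Cre, and Egfl7, with 2.33 and 2.86.

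Some erythroid, stem cell and megakaryocyte markers changed too. The 7 erythroid markers summed to 319, 198, 376 and 235 CPM in the same order of libraries, and 2 rose and 1 fell. The globin genes Hbb-bs (ratios 5.87 in ROSA-Cre and 18.5 in PF4-Cre) and Hba-a1 (4.67 and 11.7) rose, with values made uncertain by near-identical globin copies, and Klf1, the erythroid transcription factor, fell (0.152 and 0.233). The 7 stem and early progenitor markers summed to 290.2, 158, 307 and 229 CPM. Of these 2 rose, 0 fell and the others were not called. Ly6a (ratios 2.02 in ROSA-Cre and 0.813 in PF4-Cre) and Flt3 (1.51 and 0.807) lay on opposite sides of 1. Procr, the endothelial protein C receptor that marks stem cells, had 1578 counts in the ROSA-Cre knockout against 9 in the ROSA-Cre wild-type library, and 2757 in the PF4-Cre knockout against 58 in the PF4-Cre wild-type library. Mecom, a stem cell transcription factor, had ratios of 3.24 in ROSA-Cre and 2.18 in PF4-Cre. Among megakaryocyte markers, Itgb3 rose and Pf4 and Gp9 fell. Marker genes other than the most abundant of each list are named after their values were seen, and the part of any of these lists in the Notch pathway results was not tested.

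Patterns over the 4 libraries were compared by Euclidean distance between log2 levels centred on each gene's mean, among 10545 genes of at least 5 CPM on average. The nearest to Nrarp were Hemgn (distance 0.228), Il1r1 (0.249) and Cnr2 (0.339). Hemgn, a nuclear protein of blood progenitors, had 255 counts in the ROSA-Cre knockout against 1720 in the ROSA-Cre wild-type library, and 2057 in the PF4-Cre knockout against 4759 in the PF4-Cre wild-type library, so that it too was lowest by far in the ROSA-Cre knockout library. The nearest to Hes1 were Irf7 (0.153), an interferon response factor, Hdac9 (0.154) and Raph1 (0.194). Irf7 had 527 counts in the ROSA-Cre knockout against 186 in the ROSA-Cre wild-type library, and 2278 in the PF4-Cre knockout against 470 in the PF4-Cre wild-type library. The nearest to Notch2 were Nedd4l (0.0329), Map7 and Ctdsp2, to Notch1 Carns1 (0.0622), 2810410L24Rik and Prex1, to Rbpj Prkch (0.0560), Cox7a2l and Alcam, to Dtx4 Hist1h2af (0.0694), Cdc25b and Tmem39b, and to Jag2 AA465934 (0.0748), 6430548M08Rik and Itgb7. With only 4 libraries many genes share a pattern, and these distances describe the libraries alone.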

How the data were processed

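The authors deposited 1 table per library of raw counts of reads per Ensembl gene, from HTSeq and without scaling. Per the submitters' processing notes, TopHat2 2.0.10, SAMtools, HTSeq and DESeq were used with mm10 and GRCm38, and per the labels' protocols the kit was a stranded TruSeq mRNA kit. Neither the annotation release nor the strand setting is given in these sources. Symbols and coordinates (GENCODE M21) were matched for 40254 of 41214 identifiers, and the 5 HTSeq category lines were left out (reads with no gene made up 32.1% to 36.2%).

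The counts went into edgeR 4.0.16 (R 4.3.3) with TMM scaling (filterByExpr by genotype with a minimum count of 10, terms for Cre model and genotype, quasi-likelihood F-test without the legacy method, Benjamini-Hochberg adjustment over 15063 genes at 0.05). There was 1 residual degree of freedom, 6.25 prior degrees and a biological coefficient of variation of 16.1%. The fit was tested on simulated data. Within a model, with 1 library per group, ratios used a pseudocount of 1 and 95% Clopper-Pearson intervals. Intervals and the floor of 3 counts cover counting error only. The models give 2 libraries per genotype, which nothing says come from more than 1 mouse each.

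The genes and lists were chosen with earlier results of these data known. By rule the text names the 10 genes and Gfi1b, up to 3 called genes each way per sublist (or the most abundant where none passed), the most abundant marker of each marker list, and the 3 nearest patterns per gene with a mean of at least 1 CPM (distances on log2 of CPM plus 0.5). The rule also covered the markers at 0, but only some of them are named. Alternatives were DESeq2 1.42.0 (its size factors and its Wald test), other filters, other scalings, pseudocounts and size rules, no Cre term, a GC and length offset (splines with 4 degrees of freedom), each library left out, and, added after seeing the data, edgeR's older method and the AATC motif. The result of 1 marker gene is not reported here.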

Additional observations from a re-analysis of the deposited data

Results flagged for a closer look

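In these genes the knockout library was above its wild-type library in one model and below it in the other, and with 1 library per group the difference between the models was not tested. Beside them, 22.9% of tested genes lay on opposite sides. Each value is the log2 ratio in ROSA-Cre minus that in PF4-Cre. It was −0.95 for Jag2 (ratio 0.668 in ROSA-Cre and 1.29 in PF4-Cre) and −1.23 for Notch3 (0.845 and 1.98), whose counting intervals reach across 1. Among the most abundant markers of each cell type it was −1.50 for the monocyte receptor Ccr2 (0.516 and 1.46), −1.31 for the transferrin receptor Tfrc (0.415 and 1.03), −0.78 for Itga2b (0.604 and 1.04) and 2.005 for the mural marker Pdgfrb (1.87 and 0.467).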

How the results depend on the processing

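Over all genes, 1904 higher and 1444 lower calls became 158 and 4 without the Cre model term and 418 to 741 and 56 to 142 with 1 library left out. Without the filter on low counts 529 were lower. The share of calls that were higher was 56.9%, but 72.7% without the filter and 97.5% without the Cre term. For the Cre model effect, 1254 higher and 1570 lower calls became 742 and 981 without the filter.

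For the other Notch pathway genes, 13 higher calls became 8 without the filter and 2 without the Cre term. The 2 lower calls became 0 without the Cre term and 4 with the GC and length offset. Among the 10 genes, the single higher and the single lower call were each 0 without the Cre term and 0 to 1 with 1 library left out: Hes1 was called only without the ROSA-Cre knockout library, and Nrarp in every fit but that one. The fold changes that reversed were those of Notch1 (−0.13 to 1.12 with 1 library left out) and Notch2 (−0.015 to 0.70), both lowest without the ROSA-Cre knockout library, and of Jag2 (−0.46 to 0.30), highest without the ROSA-Cre wild-type library. The causes were not tested, though fits with 3 libraries hold fewer samples.

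Of the 10 genes, 1 higher and 1 lower by at least 2-fold in ROSA-Cre became 2 and 3 at 1.5-fold, and 0 were higher at 4-fold. In PF4-Cre they became 2 and 2 at 1.5-fold, 0 were lower at 4-fold, and 2 were higher with library totals in place of TMM. Genes with an RBPJ motif numbered 1, and 0 with the longer motif, and those with a GFI1 motif 0, and 3 with AATC. Over all settings of the named genes' fold changes, 198 kept direction and call, 75 kept direction and lost the call and 1 gained it (Notch1, at a mean of at least 5 CPM). No pairing finer than the Cre model was possible because the labels give no replicate numbers and each group has 1 library. The Cre model, the one shared feature, is already a term, so the main fit compares the genotypes within each model. Depth limits Dtx1, Notch3 and Notch4, whose counting intervals reach across 1.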
